A study of Mus musculus with 6 samples.

Results

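The small nucleolar RNA (snoRNA) genes of mouse liver were taken as every row of the deposited gene table whose symbol is Snora or Snord followed by a digit, which gave 122 of 34352 rows. Of these, 82 rows carry a Snord symbol, the C/D box class, and 40 carry a Snora symbol, the H/ACA box class. The cadmium group held liver RNA from wild-type C57BL/6 mice that took 20 mg of cadmium chloride per kg by daily gavage for 90 days, and the control group held liver RNA from mice given 0 mg per kg. There were 3 libraries of each group, made from the input fraction of an m6A immunoprecipitation, which the labels describe as the fragments the antibody left unbound. The mice are labelled male and 6 to 8 weeks old, which after 90 days of gavage cannot be their age at liver collection. There were 6 mice per group, and nothing ties mice to libraries. The p-values therefore reflect how libraries vary, which may be technical.

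SnoRNAs are short nucleolar RNAs that mostly guide the chemical modification of ribosomal RNA. C/D box members, bound by fibrillarin, direct ribose methylation, and H/ACA box members, bound by dyskerin, direct the conversion of uridine to pseudouridine. A few, among them Snord118, Snord22, Snord14 and the Snora73 pair, are instead needed for cleavage of the ribosomal RNA precursor, as shown in frog, yeast and human cells. In vertebrates most snoRNAs lie in introns of host genes and are released from the spliced intron, so the host transcript and the snoRNA come from the same primary RNA.

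All 122 rows matched the GENCODE M21 annotation by identifier and symbol. GENCODE types 121 of them as snoRNA and Snord43 as miRNA. The symbols Snora16a and Snord80 have 2 rows each, in which the shorter sequence lies inside the longer, so their reads are uncertain. The class motifs were read from the annotated transcripts on the transcript strand. The C box, searched as TGATGA in the first 25 bases, was found in 53 of 82 C/D rows and 0 of 40 H/ACA rows. The D box, searched as CTGA in the last 20 bases, was in 80 of 82 C/D rows and 4 of 40 H/ACA rows. The triplet ACA placed 3 bases before the end was in 0 of 82 C/D rows and 33 of 40 H/ACA rows. In 32851 RefSeq promoter entries shortened to 90 bases, the median length of the snoRNA rows, the same searches matched 0.472%, 8.48% and 1.75%.

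The sequences that follow are those of the rows on which the results turn, from the GENCODE M21 transcripts on GRCm38, written 5′ to 3′ as DNA. Capitals mark the C box, the D box and the ACA triplet where they were found in the windows given above. The most abundant of the 122 rows was Snora73b (chr4:132352322-132352526, minus strand). It is shown with Snora73a (chr4:132352775-132352979, minus strand), whose mean level lay below that of Snord17. The pair matches at 198 of 205 positions (96.6%) and shares a longest identical stretch of 56 bases.
Snora73a: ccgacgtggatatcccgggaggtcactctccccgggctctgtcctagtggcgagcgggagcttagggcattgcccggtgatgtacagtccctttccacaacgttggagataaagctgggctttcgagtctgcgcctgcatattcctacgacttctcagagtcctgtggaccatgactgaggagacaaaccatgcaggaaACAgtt
Snora73b: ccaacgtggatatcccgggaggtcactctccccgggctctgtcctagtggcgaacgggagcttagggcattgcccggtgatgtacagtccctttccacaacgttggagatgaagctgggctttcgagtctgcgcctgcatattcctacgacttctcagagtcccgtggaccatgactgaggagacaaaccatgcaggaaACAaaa
Snord17 (chr2:144265979-144266216, minus strand) is shown because it had the smallest p among the snoRNA rows, and Snora81 (chr16:23110756-23110933, plus strand) because its groups lay far apart. Snora81 as annotated has no ACA triplet at the searched position.
Snord17: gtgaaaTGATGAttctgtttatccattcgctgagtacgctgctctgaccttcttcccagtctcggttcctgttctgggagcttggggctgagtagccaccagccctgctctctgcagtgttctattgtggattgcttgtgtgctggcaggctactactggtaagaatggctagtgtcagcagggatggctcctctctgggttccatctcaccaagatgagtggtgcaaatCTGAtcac
Snora81: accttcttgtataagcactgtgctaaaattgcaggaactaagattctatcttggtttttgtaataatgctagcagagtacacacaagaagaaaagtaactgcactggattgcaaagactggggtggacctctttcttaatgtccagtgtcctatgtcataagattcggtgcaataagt
Snord15a (chr7:99482785-99482932, minus strand) and Snord15b (chr7:99479563-99479707, minus strand) lie in the same host gene, Rps3, and are 65.6% identical over 154 aligned columns.
Snord15a: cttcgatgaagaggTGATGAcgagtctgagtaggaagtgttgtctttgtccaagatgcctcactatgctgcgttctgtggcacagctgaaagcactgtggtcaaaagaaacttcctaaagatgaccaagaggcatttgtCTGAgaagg
Snord15b: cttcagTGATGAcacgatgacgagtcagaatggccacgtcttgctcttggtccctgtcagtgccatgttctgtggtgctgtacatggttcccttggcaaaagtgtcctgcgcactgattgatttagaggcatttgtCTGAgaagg
Snord22 (chr19:8725866-8725991, plus strand) and Snord118 (chr11:69073427-69073561, plus strand) stand for the members needed for ribosomal RNA processing. Snord14d (chr9:40803995-40804080, plus strand) is shown because its host gene, Hspa8, fell.
Snord22: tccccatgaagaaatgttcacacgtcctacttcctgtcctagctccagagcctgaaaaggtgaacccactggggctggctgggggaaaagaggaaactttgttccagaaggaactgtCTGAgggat
Snord118: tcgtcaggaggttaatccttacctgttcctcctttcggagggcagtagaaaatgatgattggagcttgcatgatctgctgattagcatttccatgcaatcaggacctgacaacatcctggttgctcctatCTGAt
Snord14d: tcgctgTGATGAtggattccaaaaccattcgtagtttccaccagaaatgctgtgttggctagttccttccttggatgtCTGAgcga

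Total reads recovered from the deposited values ran from 42115960 to 68587128 per library. The snoRNA rows held 24153 to 33966 reads of these. Cadmium replicate 2 and control replicate 1 stood apart from the rest in mitochondrial rRNA, with 0.277% and 0.265% of reads against 0.782% to 1.18% in the other 4 libraries. Control replicate 1 also had 44.6% of its reads on its 10 most abundant rows, against 33.3% to 35.9% elsewhere. All 6 libraries held Xist at 19.7 to 35.5 FPKM and Ddx3y and Eif2s3y at 0, which goes against the label male in both groups alike. Hepatocyte markers were high throughout, with Alb at 10130 to 17899 FPKM in cadmium libraries and 10243 to 17478 FPKM in control libraries. Stellate cell markers summed to 22.6 to 24.0 FPKM in cadmium libraries and 10.2 to 16.4 FPKM in control libraries, and 2 of the 4, Col1a1 and Lrat, were called higher. Kupffer cell markers summed to 31.2 to 38.8 FPKM in cadmium and 19.0 to 31.6 FPKM in control libraries, and 1 of 4, Timd4, was called lower. Over all rows tested, 5.14% were called in either direction. In bulk tissue, fewer cells of a type and less RNA per cell cannot be told apart, and the part of cell makeup in the results was not tested.

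Counted reads of the 122 rows were concentrated in a few long snoRNAs, and whether short ones were undercounted was not tested. Snora73b, Snord17 and Snora73a together held 59.9% of the normalized reads on the 122 rows. These 122 rows took 0.0391% to 0.0678% of all reads per library. The 587 rows that GENCODE types as snoRNA took 0.0965% to 0.166%. In FPKM (a count of fragments relative to gene length and library size), which scales for length, Snora73b averaged 628 ± 166 in cadmium and 682 ± 29.0 in control libraries (SD, n = 3 each). Next came Snord17, which guides ribose methylation of large-subunit rRNA in human cells, at 262 ± 23.2 FPKM in cadmium and 317 ± 45.8 FPKM in control. Snora73a followed at 247 ± 74.3 FPKM in cadmium and 273 ± 40.3 FPKM in control, a difference from Snord17 that lies within the spread of the libraries. Below these, Snord22 averaged 192 FPKM over the 6 libraries, Snora23 148, Snora74a 125, Snora78 119, Snora81 101, Snord15b 89.8, Snord15a 72.5 and Snord118 66.0. Neighbours in this order from Snord22 to Snord118 overlapped in their library ranges.

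**Figure D1:**
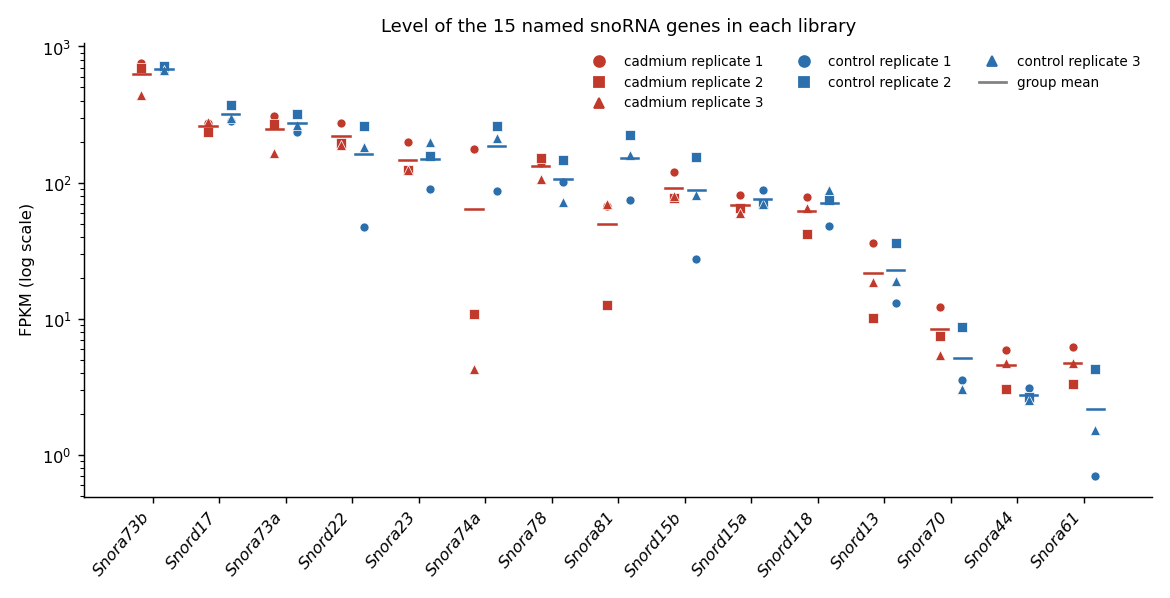
FPKM on a log axis of the 15 named snoRNA genes, with cadmium libraries left of control libraries, symbols for replicates 1 to 3 and bars for group means. Snora73b lay highest in every library, and Snora74a and Snora81 had the widest spread among cadmium libraries.

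Length and detection moved together. A row was tested when it had at least 10 normalized reads (reads divided by the authors' size factor) in at least 3 of the 6 libraries. By that minimum 39 of 122 rows could be tested, 12 of 82 C/D and 27 of 40 H/ACA. Among rows of 60 to 79 bases 3 of 42 passed, among rows of 80 to 119 bases 4 of 35, among rows of 120 to 149 bases 26 of 39, and among rows of 150 to 299 bases 6 of 6. Another 48 rows, 46 of them C/D, stayed under 3 normalized reads in every library. The RNA was broken to 200 to 500 bases before library making, per the labels' protocols, and the part of fragment length in these counts was not tested. Of the 229 values that came back as a single read, 187 implied under 0.5 read by FPKM, so the lowest values of the table had been rounded up and carry little information.

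**Figure D2:**
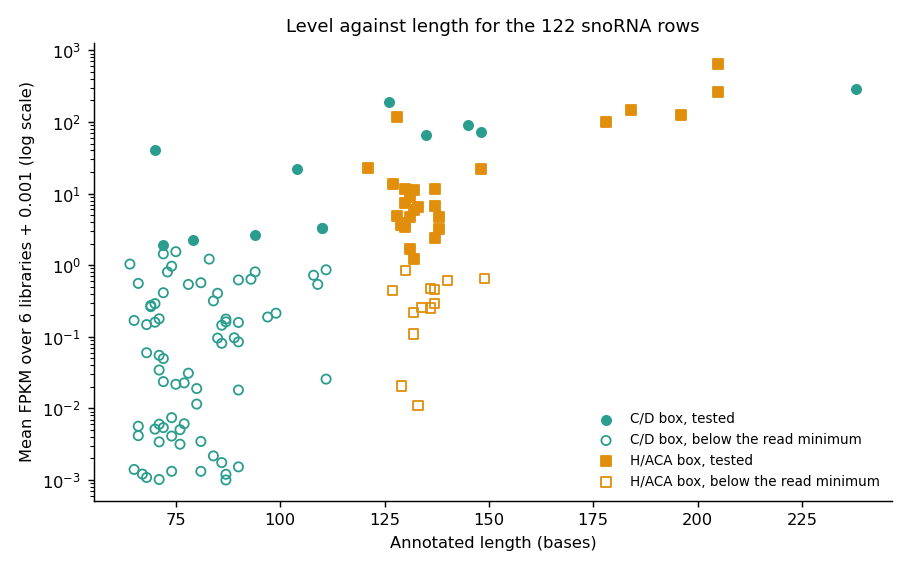
Mean FPKM over 6 libraries plus 0.001, on a log axis, against annotated length for the 122 snoRNA rows, by class and by whether the row passed the read minimum. All 6 rows of 150 bases or more passed, and most C/D rows under 120 bases did not.

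Among the short rows that did not reach the minimum were whole host families. All 4 C/D rows in Gas5 (Snord47, Snord78 and both rows of Snord80) had 1 recovered read in each of the 6 libraries. Of the 4 rows in Rpl13a, a ribosomal protein gene whose snoRNAs have been tied to the cellular response to lipid overload, Snord32a reached at most 12.2 normalized reads, Snord35a 8.19, Snord34 2.29 and Snord33 1.28. Snord14c, Snord14d and Snord14e, intronic copies of a snoRNA that yeast needs to make small-subunit rRNA, reached at most 3.44, 1.28 and 1.28 normalized reads. No statement on a change of these rows can be made at this depth. The shortest row that was well counted was Snord104, of 70 bases, at 38.5 ± 8.14 FPKM in cadmium and 42.3 ± 31.6 FPKM in control.

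The comparison of cadmium with control livers asked which snoRNAs changed after 90 days of exposure. None of the 39 tested rows passed an adjusted p of 0.05 in limma's moderated test on the deposited log2 values, in either direction. Across all 18459 rows tested the share called was 5.14%, with 2.72% higher and 2.41% lower in cadmium. At an unadjusted p of 0.05, 1 of the 39 passed, against 22% of all rows. Limma's voom method on recovered reads also called 0, where it called 4.93% of all rows, with 1 at that unadjusted level, and the fit with the replicate block called 0, where it called 3.73% of all rows. The median log2 fold change was 0.07 over the 39 rows and 0.02 over all rows tested, and 21 of the 39 values were positive. Groups did not overlap for 3 of the 39, all 3 lower in cadmium (Snord17, Snora73b and Snora81), against 27.8% of all rows in either direction and 13.2% lower. The median SE of the snoRNA rows was 0.48, against 0.21 for all rows tested. For 13 of the 39 the 95% interval lay between log2 changes of -1 and 1.

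**Figure D3:**
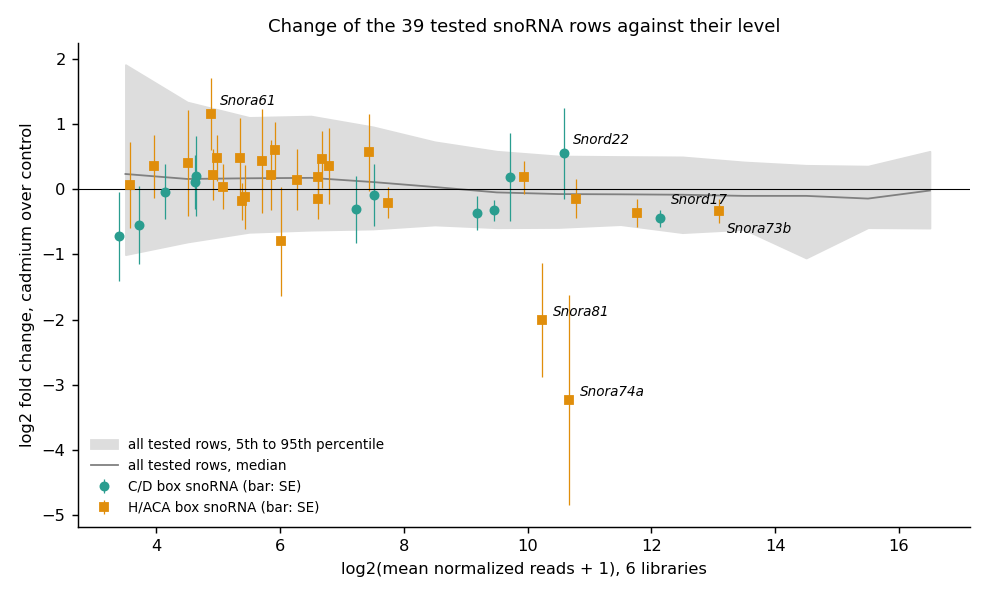
Log2 fold change of cadmium over control against log2(mean normalized reads + 1) for the 39 tested snoRNA rows, with SE bars, over the 5th to 95th percentile and median of all tested rows at the same level. Snora81 and Snora74a lie below that band, and Snord17 and Snora73b lie inside it with narrow bars.

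Snord17 had the smallest p of all snoRNA rows. It had 3874, 3476 and 4094 normalized reads in cadmium replicates 1 to 3, against 4904, 5969 and 4786 in control replicates 1 to 3. Every cadmium library lay below every control library. The log2 fold change was -0.45 (SE 0.13), with an adjusted p of 0.071 in limma and 0.127 with the replicate block. In the authors' deposited table Snord17 was the only snoRNA row with an FDR under 0.05, with a log2 fold change of -0.45 and an FDR of 0.00902, while 6.87% of all rows there were under 0.05. Its host Snx5, a sorting nexin of endosomes, differed by 0.04 on the log2 scale (adjusted p = 0.88, limma).

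The other abundant C/D rows differed less or varied more. Snord15a, a guide for ribose methylation of large-subunit rRNA, had 715, 599 and 548 normalized reads in cadmium, against 949, 700 and 693 in control libraries. The groups overlapped, and the log2 fold change was -0.32 (SE 0.16, adjusted p = 0.278, limma). Its partner in Rps3, Snord15b, had 1024, 689 and 719 normalized reads in cadmium, against 289, 1512 and 793 in control. Control replicates 1 and 2 were the lowest and the highest of the 6 libraries for Snord15b, and the log2 fold change of 0.18 (SE 0.67) was -0.46 without control replicate 1. Rps3 itself, which encodes a protein of the small ribosomal subunit, differed by -0.03 (adjusted p = 0.915, limma).

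Members that take part in ribosomal RNA processing showed the same breadth. Snord22, whose frog counterpart is needed to make small-subunit rRNA, had 2059, 1525 and 1468 normalized reads in cadmium, against 429, 2231 and 1531 in control. The cadmium libraries lay within the control range, and the log2 fold change was 0.55 (SE 0.70, adjusted p = 0.717, limma), and -0.15 without control replicate 1. Snord118, which serves the processing of large-subunit rRNA and has its own promoter, had 624, 351 and 541 normalized reads in cadmium, against 470, 677 and 804 in control. The groups overlapped, with cadmium replicate 2 the lowest, and the log2 fold change was -0.37 (SE 0.26, adjusted p = 0.45, limma), and -0.13 without cadmium replicate 2. Snord13, which guides acetylation of small-subunit rRNA in human cells, had 221, 65.3 and 120 normalized reads in cadmium and 98.3, 253 and 132 in control. Its groups overlapped widely, and the log2 fold change of -0.31 (SE 0.51, adjusted p = 0.785, limma) turned to 0.13 without cadmium replicate 2 and to 0.08 without control replicate 2.

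Among H/ACA rows the Snora73 pair, which acts in processing of small-subunit rRNA, stood highest. Snora73b had 9177, 8792 and 5569 normalized reads in cadmium, against 9759, 9920 and 9311 in control. Cadmium replicate 3 was far below the rest, and the other 2 cadmium libraries were just below the lowest control. The log2 fold change was -0.33 (SE 0.18, adjusted p = 0.319, limma), and -0.10 without cadmium replicate 3. Snora73a had 3751, 3407 and 2073 normalized reads in cadmium, against 3524, 4400 and 3657 in control, which is -0.37 on the log2 scale (SE 0.21, adjusted p = 0.364, limma). Here cadmium replicate 3 was again the lowest library, the groups overlapped, and the value was -0.10 without it. Reads of the pair can be shared, since their sequences are nearly identical.

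Snora81, which guides pseudouridine formation in large-subunit rRNA in human cells, had 714, 139 and 764 normalized reads in cadmium, against 959, 2689 and 1924 in control. Every cadmium library was below every control, but cadmium replicate 2 and control replicate 1 were each far below the others of their group. The log2 fold change was -2.01 (SE 0.88, 95% interval -4.37 to 0.36, adjusted p = 0.293, limma). These are also the 2 libraries with low mitochondrial rRNA. With both left out Snora81 was the only snoRNA row called, at -1.62 (adjusted p = 0.000408, limma, n = 2 per group), where 7.08% of all rows were called. Leaving out the lowest library of each group for Snora81 narrows its spread, so that call is no test of a change. Leaving out single libraries gave adjusted p-values of 0.275 to 0.487. The host gene Eif4a2, an RNA helicase of translation initiation, differed by 0.35 (adjusted p = 0.193, limma) and averaged 22.3 ± 1.42 FPKM in cadmium and 15.5 ± 2.23 FPKM in control (SD, n = 3). On log2(FPKM + 1) Eif4a2 was called higher (0.51, adjusted p = 0.0494, limma). On that scale 779 of 9908 rows were called higher and 180 lower.

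The largest fold change belonged to Snora74a, an H/ACA row with 2046, 131 and 52.8 normalized reads in cadmium, against 1244, 3476 and 2801 in control. Cadmium replicates 2 and 3 were low, while cadmium replicate 1 lay inside the control range. The log2 fold change was -3.23 (SE 1.61, 95% interval -7.63 to 1.16, adjusted p = 0.348, limma). Other rows annotated on the same strand over Snora74a went the other way. AC121821.1, typed as miRNA, had 161, 536 and 639 normalized reads in cadmium, against 1.02, 0 and 1.28 in control. ENSMUSG00000117869, a processed transcript that contains Snora74a, had 257, 998 and 1286 normalized reads in cadmium, against 33.8, 47.7 and 62.8 in control. For both rows every cadmium library was above every control. Summed over the 3 rows the position had 2464, 1666 and 1978 normalized reads in cadmium, against 1279, 3523 and 2865 in control. The Snora74a row held 83.0%, 7.89% and 2.67% of that sum in cadmium and 97.3% to 98.6% in control libraries. With the 3 rows counted as 1, the log2 fold change was -0.22 (adjusted p = 0.811, limma), an alternative chosen after these values were seen.

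At Snora73 and Snora81 the sums left out the host genes Snhg3 and Eif4a2, which also have an exon over Snora73a and over Snora81 on the same strand. Gm17300, annotated on the opposite strand over the Snora73 pair, had 756, 1148 and 4919 normalized reads in cadmium, against 1180, 1971 and 2066 in control. Cadmium replicate 3, the library with the lowest Snora73a and Snora73b, had the highest Gm17300. The pair held 94.5%, 91.4% and 60.8% of the sum of the 3 rows in cadmium and 86.3% to 91.8% in control, and the sum itself was 12561 to 13684 in cadmium, against 14463 to 16292 in control. Counted as 1 row these gave a log2 fold change of -0.21 (adjusted p = 0.344, limma). Of the sum of Snora81 and AC154540.1, a row typed as miRNA over it, Snora81 held 93.5% to 96.0% in cadmium and 98.5% to 99.7% in control, and the log2 fold change of that sum was -1.94 (adjusted p = 0.312, limma). In all, 71 of the 122 snoRNA rows overlap an exon of another annotated row, the host included. How the counter treated strand and overlapping rows is not stated, so reads of overlapping rows cannot be told apart. A strand setting alone would not separate rows on the same strand, as at Snora74a and Snora81.

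**Figure D4:**
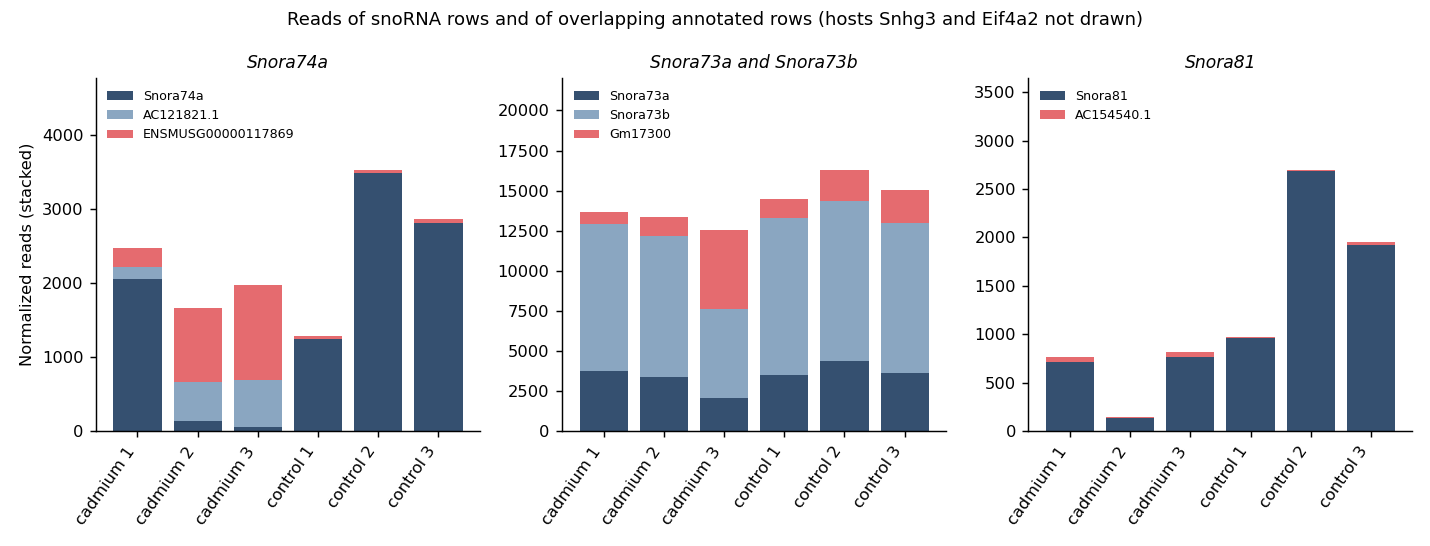
Normalized reads per library, stacked, of Snora74a, the Snora73 pair and Snora81 with annotated rows that overlap them, the hosts Snhg3 and Eif4a2 not drawn; cadmium libraries are left of control libraries. At Snora74a the overlapping rows hold most reads in cadmium replicates 2 and 3, and at Snora73 cadmium replicate 3 has the largest part on Gm17300.

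Lower H/ACA rows with small p were Snora61, Snora44 and Snora70. Snora61 had 48.1, 26.4 and 38.1 normalized reads in cadmium, against 7.17, 37.8 and 14.1 in control, and Snora44 had 45.8, 24.2 and 38.1 in cadmium, against 29.7, 23.3 and 21.8 in control. Both lie in Snhg12, a long non-coding host RNA, and their log2 fold changes were 1.15 (SE 0.55, adjusted p = 0.256, limma) and 0.48 (SE 0.36, adjusted p = 0.479, limma). Groups overlapped for both, and Snhg12 differed by 0.07. The value of Snora61 was 0.63 without control replicate 1 and 1.75 without control replicate 2, and that of Snora44 ran from 0.29 to 0.73 over single libraries left out. Snora70, in the ribosomal protein gene Rpl10, differed by 0.60 (SE 0.43, adjusted p = 0.455, limma), also with overlap, and by 0.30 to 1.04 with single libraries left out. Snora23, which lies in the nuclear import gene Ipo7, averaged 148 ± 42.8 FPKM in cadmium and 148 ± 54.1 FPKM in control, and Snora78 averaged 132 ± 23.0 FPKM in cadmium and 106 ± 37.4 FPKM in control (SD, n = 3 each). Their log2 fold changes were -0.15 and 0.18, each smaller than its SE.

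By class, the 12 tested C/D rows had a median log2 fold change of -0.20, with 4 positive and 8 negative values from -0.72 to 0.55. The 27 tested H/ACA rows had a median of 0.18, with 17 positive and 10 negative values from -3.23 to 1.15. Both medians changed sign with 1 library left out, the C/D median to 0.075 without control replicate 2 and the H/ACA median to -0.067 without control replicate 1. No row of either class was called. Over all tested rows the median change was 0.23 at the lowest level and -0.10 at levels of 13 to 14 on the log2 scale. Rows differ in level between the classes, and the part of level in the class medians was not tested.

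SnoRNA levels spread widely among the control libraries. The coefficient of variation of normalized reads had a median of 28.8% over the 39 rows in cadmium and 46.7% in control, and was larger in control for 23 of 39. Control replicate 2 had the highest value of the 3 controls for 29 of the 39 rows and of all 6 libraries for 21. Control replicate 1 was the lowest control for 22 and the lowest of all 6 for 13. After centring each row on its mean over the 6 libraries, the median snoRNA row stood at 0.50 in control replicate 2 and at -0.25 in control replicate 1 on the log2 scale, while the median over all tested rows was 0.01 in both. Snora3, in the ribosomal protein gene Rpl27a, shows the width, with 42.4, 30.8 and 75.3 normalized reads in cadmium and 14.3, 123 and 21.8 in control; it was chosen after its values were seen. The median log2 fold change of the 39 rows was -0.17 without control replicate 1 and 0.29 without control replicate 2, and it was also below 0 without cadmium replicate 1 (-0.09), cadmium replicate 3 (-0.0018) or control replicate 3 (-0.03).

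As a share of all reads, snoRNA rows took 0.0610%, 0.0466% and 0.0391% in cadmium, against 0.0433%, 0.0678% and 0.0569% in control libraries. The means were 0.0489% ± 0.0111 in cadmium and 0.0560% ± 0.0123 in control (SD, n = 3 each), and a two-sided exact permutation test gave p = 0.5, where the smallest p that 3 against 3 allows is 0.1. That difference of -0.0071 percentage points was -0.0012 without control replicate 2 and -0.0134 without control replicate 1. By summed FPKM the order was the other way, 0.214% ± 0.0563 in cadmium and 0.207% ± 0.0612 in control (exact p = 0.9). C/D rows took 0.0160% ± 0.0023 in cadmium and 0.0169% ± 0.00462 in control (exact p = 0.9), and H/ACA rows 0.0330% ± 0.00946 in cadmium and 0.0391% ± 0.0077 in control (exact p = 0.5). The groups overlapped for each share.

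Of the 122 snoRNA rows, 116 lie within a host gene, 82 of them in a protein-coding one, and they share 81 hosts. Snhg12 holds 5 rows, Gas5 and Rpl13a 4 each, and 24 hosts hold more than 1. Among the 33 tested rows with a tested host, 18 had a higher FPKM than their host, with a median ratio of 1.24. Snord22 was 183 times its host Snhg1 and Snord17 45.1 times Snx5, while Snora70 was 0.101 times Rpl10.

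Of the 79 hosts tested, 3 were called, 1 higher and 2 lower, against 5.14% of all rows. Hspa8, the constitutive heat shock cognate chaperone and host of Snord14c, Snord14d and Snord14e, had 48.6, 72.8 and 61.5 FPKM in cadmium, against 92.2, 134 and 134 FPKM in control. Every cadmium library was below every control, the log2 fold change was -1.15 (SE 0.19, adjusted p = 0.009, limma), and the call held in all 6 fits that left out a library. Its 3 snoRNA rows were too low to be tested. Tsr1, a factor for small-subunit maturation and host of Snord91a, fell by 0.66 on the log2 scale (SE 0.16, adjusted p = 0.0441, limma; 0.0625 with the replicate block), and that call held in 1 of 6 such fits, the one without cadmium replicate 2. The host that rose was ENSMUSG00000117869, which carries the reads at Snora74a described above (log2 fold change 3.86, adjusted p = 0.0392, limma), and its call held in 1 of 6 such fits, the one without cadmium replicate 1. Over all rows, the fits without 1 library called 82 to 612 higher and 115 to 488 lower, against 503 and 445 with all libraries. Nop56, host of Snord57 and Snord110 and itself a C/D core protein, differed by -0.74 (SE 0.19, adjusted p = 0.0509, limma).

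Each snoRNA was then compared with its own host by testing the difference of their log2 values. None of the 33 snoRNA rows tested this way passed an adjusted p of 0.05 in limma, where 0.758% of the 132 small RNA and host pairs did, and 2 passed an unadjusted p of 0.05. These were Snora74a, at -7.09 (SE 1.75, adjusted p = 0.298, limma), and Snora81, at -2.36 (SE 0.83, adjusted p = 0.612, limma). Without cadmium replicate 1 the Snora74a difference was called, at -9.34 (adjusted p = 0.000374, limma). Cadmium replicate 1 was the cadmium library inside the control range for Snora74a, so leaving it out narrows the spread. Directions of snoRNA and host were the same for 18 pairs and opposite for 15. Where a row overlaps a host exon, as 64 of the 122 do, host reads can enter the snoRNA row and snoRNA reads the host row. Snora74a and Snora81 are among these rows, so a read given to the host instead of the snoRNA shifts both terms. For them the difference cannot tell a change in level from a change in read assignment.

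**Figure D5:**
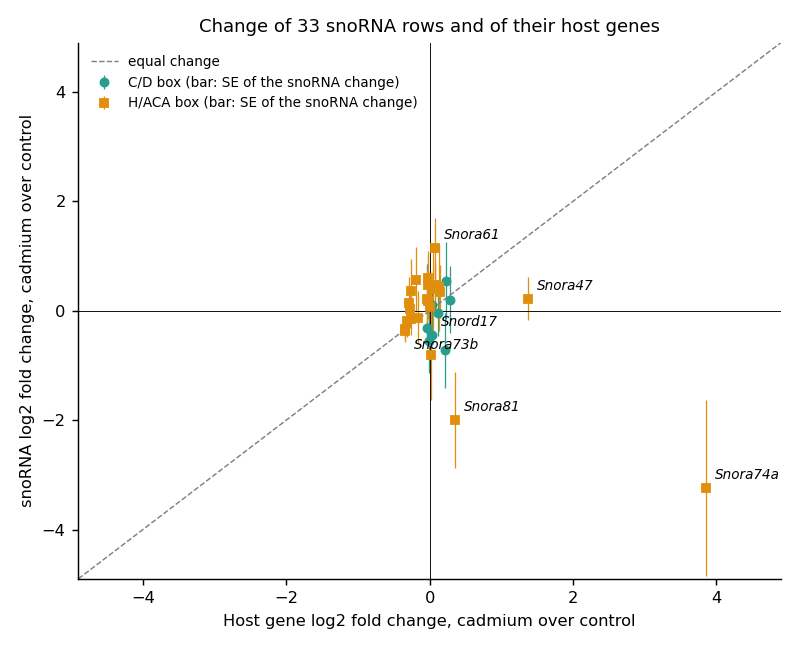
Log2 fold change of cadmium over control of 33 snoRNA rows (vertical, with SE bars) against that of their host genes (horizontal), with a dashed line of equal change. Most pairs lie near 0, and Snora74a and Snora81 lie farthest from the line.

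The proteins that bind, assemble, trim or debranch snoRNAs were followed as 42 rows, of which 41 were tested and 2 called, both lower, against 5.14% of all rows. Their median log2 fold change was -0.16, against 0.02 for all rows. The genes of nonsense-mediated decay and of RNA polymerase I, 19 rows, all tested, gave 5 calls, 1 higher and 4 lower. None of the 8 core proteins was called, and 3 passed an unadjusted p of 0.05 in limma, against 22% of all rows. The C/D core gave -0.74 for Nop56, -0.62 for Nop58, -0.26 for the methyltransferase Fbl and -0.20 for Snu13, with adjusted p-values of 0.0509 to 0.567 in limma. The H/ACA core gave -0.46 for Nhp2, -0.36 for Gar1, -0.20 for Nop10 and 0.11 for the pseudouridine synthase Dkc1, with adjusted p-values of 0.146 to 0.719 in limma. Rrp9, a protein of the U3 particle, differed by -0.46 (adjusted p = 0.14, limma).

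Among 15 assembly and transport genes, 2 were called lower, against 2.41% of all rows. Nolc1, a nucleolar and Cajal body chaperone of snoRNA particles, averaged 1.34 ± 0.282 FPKM in cadmium and 2.46 ± 0.524 FPKM in control (SD, n = 3 each), -1.05 on the log2 scale (SE 0.19, adjusted p = 0.014, limma). Its groups did not overlap, and the call was lost without cadmium replicate 1 or cadmium replicate 3 (highest adjusted p 0.0755, limma). Among fits without 1 library, these also called the fewest of all rows. Ncbp1, the large subunit of the nuclear cap-binding complex, fell by 0.58 on the log2 scale (adjusted p = 0.0286, limma; 0.0569 with the replicate block). Of 16 trimming and turnover genes tested 0 were called, and 3 passed an unadjusted p of 0.05, against 22% of all rows. Of these, Papd5, a poly(A) polymerase of nuclear RNA decay, was at -0.42, Exosc4 at -0.43 and Parn, the ribonuclease that trims H/ACA snoRNAs, at 0.31. Parn was called higher on log2(FPKM + 1) (0.32, adjusted p = 0.0377, limma), where 779 of 9908 rows were called higher and 180 lower. The debranching enzyme Dbr1, which opens the intron lariats that hold snoRNAs, differed by -0.31 (adjusted p = 0.348, limma).

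Nonsense-mediated decay degrades many snoRNA host RNAs that code for no protein. Its 8 genes had 4 positive and 4 negative log2 fold changes, with a median of -0.08. Of the 8, 2 were called, both lower, against 2.41% of all rows called lower. Upf1, the central helicase, was at 13.1 ± 1.80 FPKM in cadmium and 17.7 ± 1.68 FPKM in control (log2 fold change -0.62, adjusted p = 0.0257, limma). Smg5 differed by -0.70 on the log2 scale (adjusted p = 0.0247, limma). The non-coding hosts Gas5, Snhg1, Snhg3 and Snhg12 differed by -0.24, 0.22, -0.34 and 0.07, with adjusted p-values of 0.466 to 0.898 in limma. Whether the decay of host RNAs changed was not tested. In the RNA polymerase I group, which transcribes the ribosomal RNA that snoRNAs act on, 3 of 11 were called, against 5.14% of all rows. Rrn3, an initiation factor, fell by 0.60 and the subunit gene Polr1e fell by 0.87 on the log2 scale (adjusted p = 0.02 and 0.0475, limma; 0.0834 for Polr1e with the replicate block). Taf1b, of the promoter selectivity factor, rose by 0.89 (adjusted p = 0.0267, limma; 0.0639 with the replicate block). Of these calls, none was held in all 6 fits without 1 library. Rrn3 was called in 3, Upf1, Smg5 and Ncbp1 in 2 each, Taf1b in 1 and Polr1e in 0. Each was lost without cadmium replicate 1 and without cadmium replicate 3. Calls over all rows also fell in those fits, from 503 higher and 445 lower. They were 180 and 173 without cadmium replicate 1, and 82 and 115 without cadmium replicate 3. With values scaled to total reads, which moved the median of all rows from 0.02 to 0.21, 1 of the 6 lower calls of both sets remained, that of Nolc1.

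Other small RNA rows were put to the same test, in which 5.14% of all rows were called and 22% passed an unadjusted p of 0.05. Of 9 small Cajal body RNA rows, which guide modification of spliceosomal RNAs, 0 of 9 tested were called (0 at an unadjusted p of 0.05, limma), with a median log2 fold change of 0.16. Among spliceosomal and related Rnu rows 0 of 17 tested were called (1 at an unadjusted p of 0.05), and among 71 tested rows of snoRNA type outside the symbol rule 0 were called (2 at an unadjusted p of 0.05). Of 14 tested Mir rows 1 was called, Mir22hg, which is a long host RNA and not a miRNA, at 6.36 ± 0.881 FPKM in cadmium and 10.5 ± 0.904 FPKM in control (log2 fold change -0.91, adjusted p = 0.00557, limma). Rn7sk, Rmrp, Rpph1, Terc, Rny1, Rny3 and Vaultrc5 were all tested and 0 of 7 were called, with 0 at an unadjusted p of 0.05.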

How the data were processed

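Liver RNA of 3 cadmium and 3 control libraries was read as 150-base pairs. The authors deposited FPKM per gene and a second table of log2 values with a p-value, an FDR and a log2 change from a comparison of their own; neither the counter nor the test behind them is given in the sources used here. STAR 2.7.1a, DESeq2, cutadapt 1.1.8 and SAMtools 1.3.1 are named with mm10, which is GRCm38, per the submitters' processing notes. The deposited log2 values, turned back, were whole reads over a size factor in 100% of values within 0.05 of a read, which gave the recovered totals. For rows of 1 to 10 reads these exceeded the reads that FPKM imply by a median of 0.762, so they had been rounded up.

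Tests used limma 3.58.1 in R 4.3.3 with variance trend and robust moderation, two-sided, on log2(normalized reads + 1) of 18459 rows with at least 10 normalized reads in at least 3 of 6 libraries. Benjamini-Hochberg adjustment ran over all of them, with a threshold of 0.05. FPKM could not serve as the main scale, because for RNAs this short an FPKM of 1 stands for few reads. Fold changes are log2 of cadmium over control and are understated at low reads by the added 1. The fit was tested on simulated data. Host genes are annotated rows whose span contains the snoRNA on the same strand; where there were several, the one with the most reads was taken. Differences from hosts were tested without the trend.

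Named are the 10 tested rows of smallest p, the 10 of highest mean FPKM, the 5 of most normalized reads in each class, the processing snoRNAs, their hosts, and up to 4 genes of each protein list. The snoRNA rows and all lists were chosen with earlier results of these data known. The replicate number is also the batch in the labels, so it pairs the libraries. Deviations from group means had correlations across rows of -0.0524, -0.0511 and -0.0336 in the pairs that share a number, and of -0.0444 to 0.0925 in the other pairs of a cadmium and a control library. Errors and intervals are between libraries, and counting error is not given separately. Other fractions of the immunoprecipitation were not analysed here.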

Additional observations from a re-analysis of the deposited data

How the results depend on the processing

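Across the 17 alternatives the number of snoRNA rows called stayed at 0, except with control replicate 1 and cadmium replicate 2 both left out. There it was 1 (Snora81), for which these are the lowest library of each group, so the call is no test of a change. The fits left out single libraries, used log2(FPKM + 1) or log2(FPKM + 0.1), dropped or raised the read minimum (none, 50), rescaled (quantiles, total reads), added the replicate block, dropped robust moderation, used voom, or summed overlapping rows; the last was chosen after seeing the data. The median log2 fold change stayed within the spread between libraries and ran from -0.17 to 0.29. The snoRNA minus host difference called 0 rows, and 0 to 1 without a single library; voom was not run for it, nor were summed rows.

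Called hosts were few and moved with the settings. Against 1 called higher and 2 lower, log2(FPKM + 1) gave 2 and 1, log2(FPKM + 0.1) gave 1 lower, no filter 0 and 1, total-read scaling 3 and 1, and no robust moderation 1 lower. Quantile normalization and voom gave 0 higher, leaving out both libraries 0 and 4, and summed rows 0 higher, since the called host was one of the rows summed. Single libraries left out gave 0 to 1 higher and 1 to 3 lower. In the paired fit with the replicate block, 1 host was lower, 0 of the protein genes (snoRNA-related, decay and RNA polymerase I together) were higher, 0 snoRNA rows were called, and no snoRNA call changed. Against 1 of these protein genes called higher (Taf1b) and 6 lower, log2(FPKM + 1), log2(FPKM + 0.1) and total-read scaling each gave 2 and 1. Over all rows these settings called 779, 720 and 1447 higher and 180, 174 and 232 lower, in that order. Quantile normalization and leaving out both libraries gave 0 higher, and single libraries left out gave 0 to 1 higher and 0 to 7 lower.

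Signs turned for snoRNA rows and hosts that lay within their error and for the medians of both classes: single libraries left out gave -0.45 to 0.075 for C/D and -0.067 to 0.41 for H/ACA, which was at -0.0079 with both libraries left out. With both libraries left out Snord22 was at -0.09, Snord15b at -0.35 and Snhg12 at -0.10. Snora23 was at 0.034 on log2(FPKM + 1), 0.035 on log2(FPKM + 0.1) and 0.043 scaled to total reads. In the same 3 settings Rpl10 was at 0.16, 0.16 and 0.17, and Rps3 at 0.14, 0.15 and 0.16. After quantile normalization Rpl10 was at 0.082, Rps3 at 0.047 and Snhg12 at -0.054. Single libraries left out gave -0.15 to 1.04 for Snord22, -0.43 to 0.080 for Snora23, -0.090 to 0.43 for Snora78, -0.46 to 0.74 for Snord15b, -0.74 to 0.13 for Snord13, -0.13 to 0.038 for Rpl10, -0.0050 to 0.080 for Snx5, -0.15 to 0.039 for Rps3, -0.66 to 0.13 for Snhg3 and -0.051 to 0.32 for Snhg12. The causes were not tested. Of the C/D rows, 70 of 82 stayed under the read minimum and could not be tested.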
